A study of Mus musculus with 8 samples.

Results

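The genes described here encode the enzymes and regulators with which a cell makes cholesterol and fatty acids, as read from the mRNA of the mouse hepatoma line Hepa 1-6. They form a fixed list of 33 genes of these pathways, picked by name and not by a threshold on a measured value. The list was set with earlier results of these data known. Its shares, set below against those of all tested genes, are therefore description and no independent evidence. Of the 33, 32 were found in the mRNA table of 21915 genes, and these 32 all passed the filter on low counts that left 14142 genes to be tested. The other 1 is not analysed here.

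Polyadenylated RNA was sequenced from 2 control and 2 Kap1 knock-down (Kap1 KD) samples. KAP1, the product of Trim28, is a corepressor that KRAB zinc-finger proteins bring to DNA. The Kap1 KD cells carried a pLKO vector with an shRNA against Kap1 and the control cells the empty vector, and all were grown in DMEM with 10% FCS, a serum that itself carries lipids. Transduction took place 5 days before collection according to one label, while another speaks of transfection with a plasmid, and the methods state puromycin selection of the transduced cells, and no clone is named. A single shRNA is named in the methods, so its effect and that of losing Kap1 cannot be told apart. The study measured these samples to ask how KAP1 depletion changes transcription. In each group 1 sample is numbered 2 and the other bears no number. The latter was taken as replicate 1, and the pairing of same-numbered samples is inferred from this alone. Nothing says that the samples came from separate cultures, so p-values rest only on the spread between these samples, which may be technical. In edgeR's fits with the replicate number, used below, that spread is shared by genes of like abundance and is not a gene's own.

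Cholesterol and fatty acid synthesis share a starting material, acetyl-CoA, and share a control. The SREBP transcription factors are made as precursors in the membrane of the endoplasmic reticulum, where SCAP escorts them to the Golgi for cleavage when sterols are scarce and INSIG proteins hold SCAP back when sterols are plentiful. The released factors bind sterol regulatory elements in promoters, together with NF-Y at CCAAT boxes and Sp1 at GC boxes. The liver is a main site of both pathways, and it exports their products in lipoproteins.

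Totals ran from 41566888 to 53605115 counts per sample. Trim28, the gene targeted by the shRNA, had 456 and 574.5 CPM in control replicates 1 and 2 and 106 and 78.9 CPM in Kap1 KD replicates 1 and 2, where CPM are counts per 1000000 after TMM scaling. Both Kap1 KD samples thus lay below both controls. The Hepa 1-6 label was checked against its markers. All 8 hepatocyte and hepatoma markers were listed and summed to between 4342 and 5432 CPM per sample. Keratins made up much of the sum, with 1057 to 1749 CPM of Krt8 and 1427 to 2215 CPM of Krt18. Albumin (Alb) ran from 441 to 1580 CPM. Transthyretin (Ttr) had at most 11 counts, Apoa1 at most 21 counts and Apoa2 at most 2.18 CPM. Endothelial markers summed to at most 0.282 CPM, macrophage and leukocyte markers to between 20.9 and 38.7 CPM with at most 8 counts of Ptprc, and stellate cell and fibroblast markers to between 1229 and 1701 CPM, nearly all of it decorin (Dcn), with at most 1 count of Pdgfrb. Samples of the same number shared their deviation from the group means, at a correlation of 0.813 over the 14142 tested genes and of 0.948 over the 32 lipid genes (genes are not independent replicates). Replicate number parted the samples along the first principal component (75.7% of the variance) and Kap1 KD along the second (17.9%). Differences between the groups are therefore given within each pair and, beside the fit without the replicate number, from the fit with that number as a block.

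Desaturases and farnesyl diphosphate synthase led the list by level. To compare genes, counts were scaled to the exonic length (RPKM, reads per length of exon and library size). Scd2, a stearoyl-CoA desaturase that makes monounsaturated fatty acids, stood at 408.3 ± 94.95 RPKM in control cells (SD, n = 2) and Fdps, which makes farnesyl diphosphate, at 257 ± 64.2 RPKM (SD, n = 2). ATP citrate lyase (Acly), the desaturases Scd1 and Fads2 and fatty acid synthase (Fasn) followed between 108.9 and 73.9 RPKM, and squalene epoxidase (Sqle) reached 70.8 ± 0.123 RPKM (SD, n = 2). At the other end, Insig1 stood at 6.83 RPKM, the elongase Elovl6 at 6.69 RPKM, the sterol reductase Tm7sf2 at 3.53 ± 0.0394 RPKM (SD, n = 2) and Acacb at 0.149 ± 0.0498 RPKM (SD, n = 2). Acacb, the mitochondrial form of acetyl-CoA carboxylase, whose product restrains the entry of fatty acids for oxidation, was counted 61 and 88 times in control and 60 and 139 times in Kap1 KD cells, whereas no other of the 32 genes had fewer than 325 counts in a sample. In control cells the ranges of 21 of the 31 neighbouring pairs in this order overlapped, and no neighbours in the middle of the order, from Sc5d at 26.6 RPKM to Hsd17b7 at 8.84 RPKM, were apart. The order also depends on the length used. Tm7sf2 has 3484 bases of exon but 1498 in its longest coding transcript, Sqle 5546 and 2758, and Lss 10787 and 4667. For Insig1 (2647) and Elovl6 (5951) both lengths are the same. Scaled to the coding transcript, Tm7sf2 would rank above Insig1 and Elovl6, and Sqle above Fasn.

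**Figure D1:**
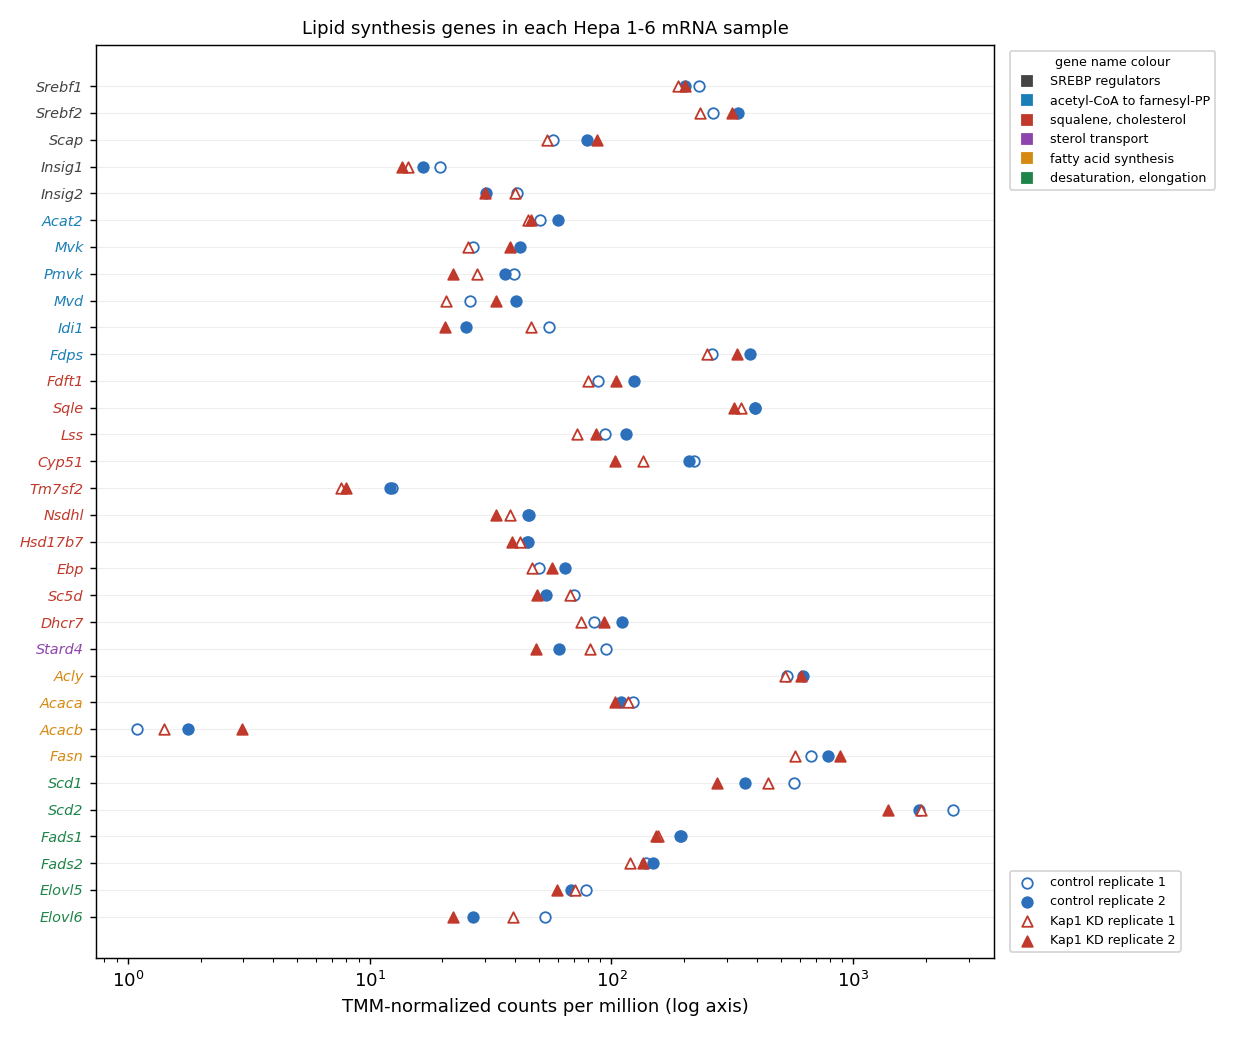
TMM-normalized CPM of the 32 genes (log axis) in each of the 4 mRNA samples, with circles for control, triangles for Kap1 KD, open symbols for replicate 1 and filled symbols for replicate 2. The triangles of Cyp51, Pmvk and Tm7sf2 lie to the left of both circles, and the open symbols of Idi1, Elovl6, Scd1 and Stard4 lie to the right of the filled ones.

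Most of the lipid synthesis genes were a little lower in Kap1 KD than in control cells, in both pairs, and 3 of them by more than 1.5-fold in the fit over both. Of the 32 genes, 29 (90.6%) were lower in both pairs of same-numbered samples, against 38.1% of all tested genes, and 1 (3.12%, Acacb) was higher in both, against 32.8%. These counts take the sign alone. The 29 include changes close to none, as for Insig2 (-0.035 and -0.0026), Acly (-0.029 and -0.020) and Srebf1 in pair 2 (-0.0008). On the log2(CPM + 0.1) scale the median change was -0.20 within pair 1 and -0.25 within pair 2, while over all tested genes it was -0.023 and -0.0043. In 12 of the 32 (37.5%) both Kap1 KD samples lay below both controls, against 10.6% of all tested genes, and in 0 did both lie above, against 9.69%. In these bulk libraries, fewer cells that express a gene and less RNA per cell cannot be told apart.

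The test depended on the replicate number. Without it, edgeR's quasi-likelihood test called 0 of the 32 genes higher or lower at a 1.5-fold change and an adjusted p under 0.05, and 0% of all 14142 tested genes in either direction. Each of the 32 had an adjusted p of 0.9999 in that fit. Unadjusted p-values under 0.05 were found for Cyp51, Pmvk and Tm7sf2 (9.38% of the 32, against 1.31% of all tested genes), and DESeq2 without the block called 0 of the 32. With the replicate number as a block, edgeR called Cyp51, Pmvk and Tm7sf2 lower (3 of 32, 9.38%, against 2.4% of all tested genes) and Acacb higher (1 of 32, 3.12%, against 2.06%). Without the fold limit, 17 of the 32 passed as lower (53.1%, against 11.5%) and 1 as higher (3.12%, against 10.1%). DESeq2 with the block called the same 3 genes lower at 1.5-fold (against 0.856% of all tested genes) and 9 of the 32 (28.1%, against 3.14%) without the fold limit, which were Cyp51, Pmvk, Tm7sf2, Lss, Nsdhl, Scd1, Scd2, Fads1 and Elovl6. The blocked fit leaves 1 residual degree of freedom and gave all genes of like abundance the same dispersion, so its standard errors do not carry a gene's own spread. A rise or fall named from here on refers to an adjusted p under 0.05 in edgeR's blocked fit.

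**Figure D2:**
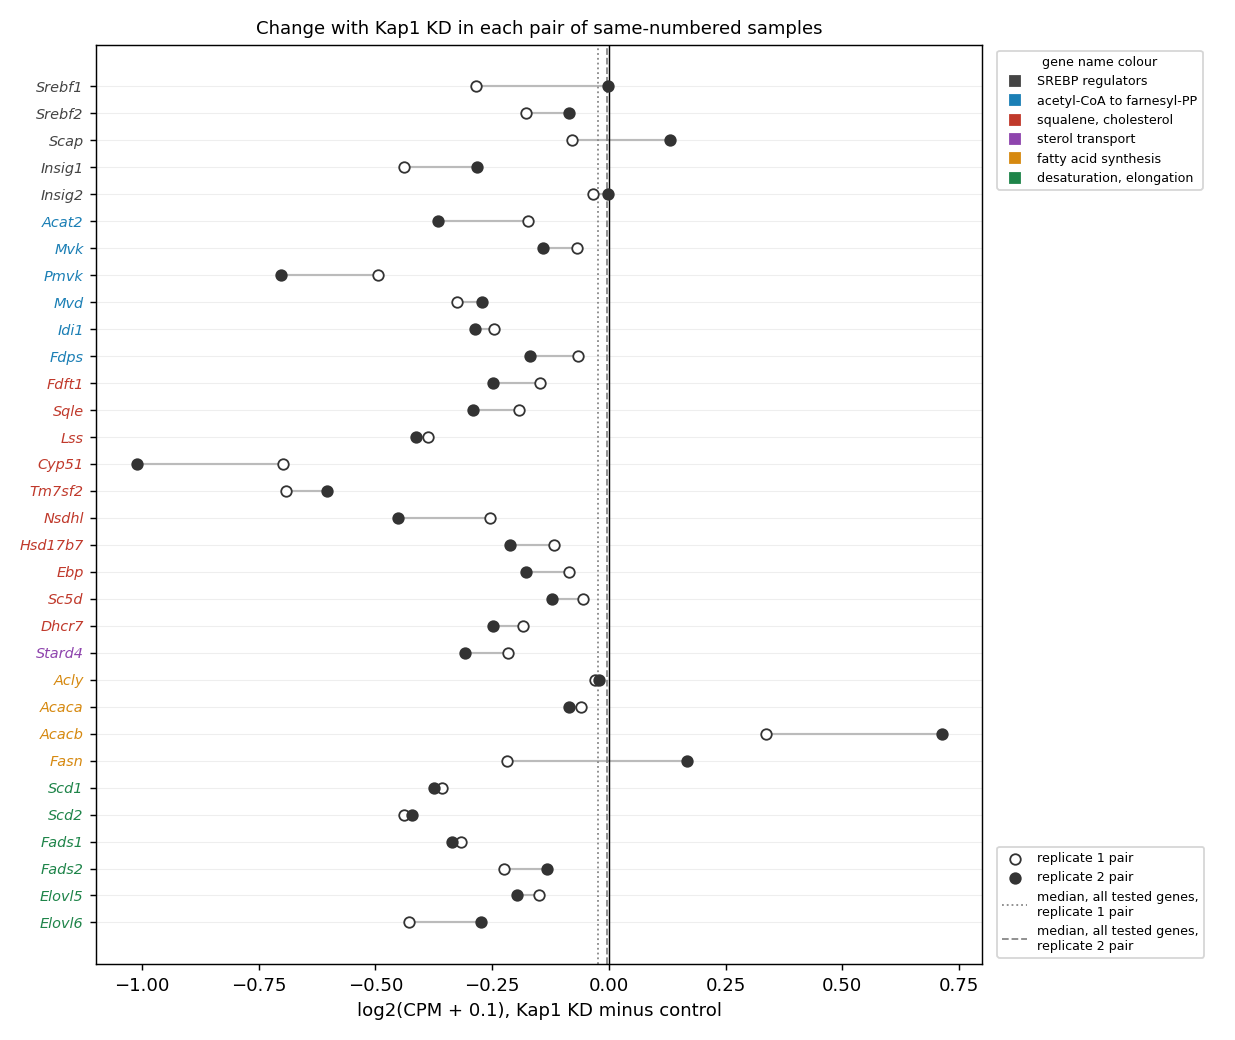
Kap1 KD minus control on the log2(CPM + 0.1) scale for each of the 32 genes, with an open circle for the replicate 1 pair, a filled circle for the replicate 2 pair and a grey line joining them. The dotted and dashed lines are the medians of all tested genes, -0.023 and -0.0043, and 29 genes have both circles below 0, with Cyp51 farthest, at -0.70 and -1.01.

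The largest decreases of the 32 genes in the blocked fit, those of Cyp51 and Tm7sf2, lay in the steps that make squalene and turn it into cholesterol. All 10 genes of these steps were lower in both pairs, against 38.1% of all tested genes. Of the 10, 7 fell (Cyp51, Tm7sf2, Lss, Nsdhl, Sqle, Dhcr7 and Fdft1), against 11.5%, and none rose, against 10.1%. Their median changes within pairs 1 and 2 were -0.19 and -0.27 on the same scale. Cyp51, the lanosterol demethylase, lies on chromosome 5 (4081145 to 4104746 in mm9, minus strand). It had 219.8 and 209 CPM in control replicates 1 and 2 and 135.5 and 103 CPM in Kap1 KD replicates 1 and 2. The Kap1 KD samples lay below both controls, the more so in replicate 2, and the pairs gave log2 changes of -0.70 and -1.01. In edgeR's blocked fit the log2 change of Cyp51 was -0.85 ± 0.066 (SE), with an adjusted p of 5.54e-36, and in DESeq2 with the block the adjusted p was 9.24e-15. Without the block the same log2 change of -0.84 had a standard error of 0.20.

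Tm7sf2 encodes a sterol reductase that acts on the product of CYP51. The gene lies on chromosome 19 (6062821 to 6068373 in mm9, minus strand). Its level was low but steady, with 12.4 and 12.2 CPM in the control samples and 7.63 and 7.99 CPM in the Kap1 KD samples. The 2 groups were well apart and the pairs gave -0.69 and -0.60, for a blocked log2 change of -0.65 ± 0.12 (SE) and an adjusted p of 1.11e-06 from edgeR. Another gene, 1110014N23Rik, is annotated over part of it on the same strand, and the counting may leave out or divide reads that both share. Sc5d, a sterol desaturase of the late pathway, had 70.3 and 53.5 CPM in the control samples and 67.7 and 49.1 CPM in the Kap1 KD samples. Here the groups overlapped and the blocked log2 change of -0.089 ± 0.081 (SE) did not pass, with an adjusted p of 0.48 from edgeR.

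Fdft1, the squalene synthase that commits farnesyl diphosphate to sterols, had 88.3 CPM in control and 79.7 CPM in Kap1 KD replicate 1, and 124.5 and 105 CPM in control and Kap1 KD replicate 2. Its decrease was visible only within pairs, since the replicate 2 samples were higher in both groups, and its blocked log2 change of -0.20 ± 0.077 (SE) passed narrowly, with an adjusted p of 0.0479 from edgeR and 0.215 from DESeq2. Ctsb is annotated over part of Fdft1 on the other strand, and it is not stated whether the counting used strand. Lanosterol synthase (Lss), Nsdhl, Sqle and the last reductase of the pathway, Dhcr7, fell with blocked log2 changes of -0.40, -0.35, -0.24 and -0.22. In DESeq2 with the block Sqle and Dhcr7 did not pass (adjusted p = 0.0518 and 0.166). Hsd17b7 and Ebp did not pass in edgeR's blocked fit, at -0.17 and -0.13.

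Between acetyl-CoA and farnesyl diphosphate, all 6 genes analysed were lower in both pairs, against 38.1% of all tested genes. Of the 6, 4 fell (Pmvk, Mvd, Acat2 and Idi1), against 11.5%. The medians were -0.21 and -0.28 in the 2 pairs. Pmvk, the phosphomevalonate kinase, lies on chromosome 3 (89263040 to 89272935 in mm9, plus strand). It had 39.4 and 36.2 CPM in control replicates 1 and 2 and 27.9 and 22.2 CPM in Kap1 KD replicates 1 and 2. Both Kap1 KD samples were below both controls, and the blocked log2 change was -0.60 ± 0.081 (SE), with an adjusted p of 1.25e-11 from edgeR and 0.000107 from DESeq2. The enzymes before and after it in the pathway moved less. Mevalonate kinase (Mvk) had 26.6 CPM in control and 25.4 CPM in Kap1 KD replicate 1, and 42.02 and 38.1 CPM in control and Kap1 KD replicate 2, with a blocked log2 change of -0.11 ± 0.08 (SE) that did not pass in edgeR (adjusted p = 0.365). Mvd, the decarboxylase that makes isopentenyl diphosphate, had 25.9 CPM in control and 20.7 CPM in Kap1 KD replicate 1, and 40.1 and 33.2 CPM in control and Kap1 KD replicate 2. It was lower by about the same log2 amount in each pair, -0.33 and -0.27, although control replicate 1 lay below Kap1 KD replicate 2.

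Idi1, the isopentenyl diphosphate isomerase, lies on chromosome 13 (8884852 to 8891641 in mm9, plus strand). It had 55.3 CPM in control and 46.5 CPM in Kap1 KD replicate 1, and 25.0 and 20.5 CPM in control and Kap1 KD replicate 2. Its samples sorted by replicate number before group, and within pairs its log2 changes were -0.25 and -0.29. The blocked log2 change of -0.27 ± 0.077 (SE) passed in edgeR (adjusted p = 0.00503) and not in DESeq2 (adjusted p = 0.161). Acat2, the cytosolic thiolase, fell by 0.27 on the log2 scale in edgeR's blocked fit. In DESeq2 with the block neither Acat2 nor Mvd passed (adjusted p = 0.126 for each). Acat3, a near copy of Acat2, had between 286 and 520 counts per sample, and reads of the pair may have been divided between them. Fdps did not pass, at -0.12 (adjusted p = 0.11 from edgeR).

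Proximal promoters are shown for Cyp51 and Tm7sf2, which with Pmvk changed most with Kap1 KD, and for Idi1, which differed most between replicates. These 3 were chosen after their values were seen. Pmvk was left out because RefSeq's table holds several windows for it. Among its windows CCAAT was found, but GGGCGG was found in none of them on either strand. The sequences are RefSeq's on GRCm38.p6, from 250 bases before to 50 bases after the gene's start, printed 5′ to 3′ on the gene's strand, at chr5:4104648-4104947 (minus strand) for Cyp51, chr19:6067801-6068100 (minus strand) for Tm7sf2 and chr13:8885356-8885655 (plus strand) for Idi1. Capitals mark CCAAT or its complement ATTGG, the letters of an NF-Y box, and GGGCGG or CCGCCC, those of a GC box.
Cyp51: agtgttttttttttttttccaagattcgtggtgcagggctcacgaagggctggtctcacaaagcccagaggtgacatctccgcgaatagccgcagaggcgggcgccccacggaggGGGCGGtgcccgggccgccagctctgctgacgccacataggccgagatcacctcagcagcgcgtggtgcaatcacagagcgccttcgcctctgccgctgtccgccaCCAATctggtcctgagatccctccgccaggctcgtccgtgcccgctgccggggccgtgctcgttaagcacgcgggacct
Tm7sf2: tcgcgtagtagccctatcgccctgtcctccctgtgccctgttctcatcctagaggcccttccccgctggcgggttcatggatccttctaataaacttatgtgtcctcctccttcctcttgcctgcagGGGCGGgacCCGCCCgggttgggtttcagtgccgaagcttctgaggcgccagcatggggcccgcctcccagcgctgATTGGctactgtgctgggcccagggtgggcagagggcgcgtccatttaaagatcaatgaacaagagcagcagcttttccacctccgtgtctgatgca
Idi1: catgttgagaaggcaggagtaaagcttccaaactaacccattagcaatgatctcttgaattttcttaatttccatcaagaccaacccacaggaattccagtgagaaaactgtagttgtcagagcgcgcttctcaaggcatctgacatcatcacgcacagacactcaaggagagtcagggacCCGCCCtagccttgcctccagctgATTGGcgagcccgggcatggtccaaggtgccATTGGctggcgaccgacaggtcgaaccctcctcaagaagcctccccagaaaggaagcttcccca

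In the Cyp51 window CCAAT stands at bases 222 to 226 and a GC box at bases 116 to 121, counted from 1 at the 5′ end. Tm7sf2 holds ATTGG at bases 204 to 208 and a GC box on each strand, and Idi1 holds ATTGG at bases 206 to 210 and 237 to 241 and a GC box at bases 182 to 187. RefSeq's table held promoters for 25 of the 32 genes and for 8997 of the tested genes. A gene with more than 1 such window was counted if any of them held the letters. Searched on both strands, CCAAT was present in 20 of the 25 (80%) and in 43.6% of these tested genes. GGGCGG was present in 76% against 67.5%, and the E-box CACGTG in 24% against 11.7%. The sterol regulatory element-like letters TCACNCCAC were present in 0 of the 25 and in 1.4% of the tested genes, which says only that these letters are not in these windows. No marked matches overlapped each other in the printed windows.

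Genes of fatty acid desaturation and elongation were lower by like amounts in both pairs. All 6 were lower than their control in each pair, against 38.1% of all tested genes, with medians of -0.34 and -0.30. Of the 6, 4 fell (Scd2, Scd1, Elovl6 and Fads1), against 11.5%. Scd2 had 2593 and 1860 CPM in control replicates 1 and 2 and 1912 and 1389 CPM in Kap1 KD replicates 1 and 2. In each replicate the Kap1 KD sample was lower by nearly the same log2 amount, -0.44 and -0.42, and the blocked log2 change was -0.43 ± 0.059 (SE), with an adjusted p of 2.31e-11 from edgeR and 2.2e-06 from DESeq2. Scd1, the form best known from liver, had 569 CPM in control and 444 CPM in Kap1 KD replicate 1, and 355 and 274 CPM in control and Kap1 KD replicate 2. Its pairs gave -0.36 and -0.37, with a blocked log2 change of -0.37 ± 0.054 (SE) and an adjusted p of 1.2e-09 from edgeR, although the 2 groups overlapped across replicates.

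Fads1, a desaturase of polyunsaturated fatty acids, had 195 and 193 CPM in the control samples and 156 and 152.5 CPM in the Kap1 KD samples. Replicates lay close together in both groups and the groups did not overlap. Its blocked log2 change was -0.33 ± 0.064 (SE), with an adjusted p of 8.48e-06 from edgeR and 0.00464 from DESeq2. Elovl6, which elongates palmitate, had 52.9 CPM in control and 39.3 CPM in Kap1 KD replicate 1, and 26.7 and 22.1 CPM in control and Kap1 KD replicate 2, so that its samples lay further apart by replicate number than by group. Within pairs it was lower by 0.43 and 0.27 on the log2 scale, and the blocked log2 change of -0.35 ± 0.078 (SE) passed in edgeR (adjusted p = 0.000109). Fads2 and Elovl5 did not pass, at -0.18 and -0.17 in the same fit (adjusted p = 0.0522 and 0.11 from edgeR).

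Among the 5 regulators, only Insig1 fell with the block, against 11.5% of all tested genes, and none rose, against 10.1%. Insig1, which retains SCAP and is itself a target of SREBP, had 19.6 and 16.6 CPM in control replicates 1 and 2 and 14.4 and 13.7 CPM in Kap1 KD replicates 1 and 2. Both Kap1 KD samples lay below both controls. The blocked log2 change was -0.36 ± 0.10 (SE), with an adjusted p of 0.00289 from edgeR and 0.138 from DESeq2, which did not call it. Insig2, the form less tied to SREBP, had 40.8 CPM in control and 39.8 CPM in Kap1 KD replicate 1, and 30.1 and 30.1 CPM in control and Kap1 KD replicate 2. It differed between replicates and hardly between groups, with a blocked log2 change of -0.019 ± 0.078 (SE). Srebf2, which encodes the SREBP best known for the cholesterol genes, had 263 CPM in control and 233 CPM in Kap1 KD replicate 1, and 333 and 314 CPM in control and Kap1 KD replicate 2, and its blocked log2 change of -0.13 ± 0.056 (SE) did not pass (adjusted p = 0.0769 from edgeR). Scap had 57.2 CPM in control and 54.2 CPM in Kap1 KD replicate 1, and 79.4 and 87.0 CPM in control and Kap1 KD replicate 2. It was lower in the replicate 1 pair, at -0.079, and higher in the replicate 2 pair, at 0.13, and the sign of its fitted change, 0.028, turned with total-count scaling. Srebf1, whose product is best known for the fatty acid genes, gave -0.28 in the replicate 1 pair and -0.0008 in the other. Counts of Srebf1 cannot be divided between its SREBP isoforms, which differ in their first exon, and transcript levels say nothing of how much precursor was cleaved.

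Stard4, a carrier of cholesterol between membranes, had 95.1 CPM in control and 81.9 CPM in Kap1 KD replicate 1, and 60.7 and 49.0 CPM in control and Kap1 KD replicate 2. Within pairs it was lower by 0.22 and 0.31 on the log2 scale. The blocked log2 change of -0.26 ± 0.081 (SE) passed in edgeR (adjusted p = 0.00917) and not in DESeq2 (adjusted p = 0.0911).

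None of the 4 genes grouped here under fatty acid synthesis (Acly, Acaca, Acacb and Fasn) fell, against 11.5% of all tested genes. Their medians were -0.045 and 0.073 in the 2 pairs. Fasn, the fatty acid synthase, had 669 CPM in control and 575 CPM in Kap1 KD replicate 1, and 786 and 882 CPM in control and Kap1 KD replicate 2. Kap1 KD was lower in the replicate 1 pair, at -0.22, and higher in the replicate 2 pair, at 0.17, for a blocked log2 change of -0.025 ± 0.059 (SE) and one of 0.0026 without the block. Acly, which makes cytosolic acetyl-CoA, had 532 CPM in control and 522 CPM in Kap1 KD replicate 1, and 618 and 609 CPM in control and Kap1 KD replicate 2, with log2 changes of -0.029 and -0.02. Acaca, the cytosolic acetyl-CoA carboxylase, had 122 and 109.9 CPM in the control samples and 117 and 104 CPM in the Kap1 KD samples, and its blocked log2 change was -0.073 ± 0.074 (SE). Acacb, on chromosome 5 (114596544 to 114700770 in mm9, plus strand), had 1.09 CPM in control and 1.41 CPM in Kap1 KD replicate 1, and 1.77 and 2.97 CPM in control and Kap1 KD replicate 2. It was higher in Kap1 KD in both pairs, at 0.34 and 0.71, and its blocked log2 change of 0.59 ± 0.21 (SE) passed in edgeR (adjusted p = 0.0312), while DESeq2 with the block gave it no adjusted p. With at most 139 counts, and with Kap1 KD replicate 1 below control replicate 2, this rise rests on few reads, its fold lay just past the limit, and with total-count scaling it was not called. Whether the 4 genes differed from the other 28 was not tested.

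Other values moved with the group. Among the hepatocyte markers, albumin (Alb) fell in the blocked fit by 0.96 on the log2 scale (SE 0.059), alpha-fetoprotein (Afp) by 0.48 (SE 0.058), transferrin (Trf) by 0.57 (SE 0.12) and Apoa1, with 5 to 21 counts per sample, by 1.36 (SE 0.49). Apoa2 and the keratins Krt8 and Krt18 gave 0.17, 0.15 and 0.13 and did not pass, and Ttr was too low to test. DESeq2 with the block did not call Afp (adjusted p = 0.298) and gave Apoa1 no adjusted p. The 2 pairs of Alb differed, at -0.70 and -1.23. For Alb the same DESeq2 fit gave a standard error of 0.29 and an adjusted p of 0.022, and for Trf an adjusted p of 0.0451. Of the other cell type markers, the collagen Col1a1, with 32 to 71 counts per sample, rose by 0.72 (SE 0.26) in edgeR's blocked fit, and DESeq2 gave it no adjusted p. The part of these in the decrease of the lipid genes was not tested. The blocked change also moved with GC content, at a Spearman rho of 0.332 over 12417 tested genes with a coding transcript and 0.207 over the 32 lipid genes (both across genes of the same 4 libraries). In 4 equal bins of GC content the medians of the lipid genes were -0.22, -0.31, -0.17 and -0.14 from the lowest to the highest bin (6, 10, 6 and 10 genes), against -0.12, -0.045, 0.020 and 0.087 for all genes. The part of GC content in the decrease of the lipid genes was not tested.

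Between replicates 2 and 1 the lipid genes parted in both directions, from -1.17 for Idi1 to 0.89 for Acacb on the log2 scale. In edgeR's fit with both group and replicate number, 3 of the 32 were called higher in replicate 2 at 1.5-fold and an adjusted p under 0.05 (Acacb, Mvd and Mvk, 9.38%, against 9.08% of all tested genes) and 4 lower (Idi1, Elovl6, Stard4 and Scd1, 12.5%, against 17.4%). Without the fold limit 12 passed as higher (37.5%, against 31.5%) and 11 as lower (34.4%, against 32.1%). These shares are near those of all tested genes. The median difference was -0.039 for the 32 genes and -0.0025 for all tested genes. In 11 of the 32 (34.4%) both replicate 2 samples lay above both replicate 1 samples, against 35.5% of all tested genes. In 9 (28.1%) both lay below, against 37.2%. A replicate number is a name given by the labels, and what differed between the replicates is not stated. Macrophage and leukocyte markers summed to 22.2 and 38.7 CPM in control replicates 1 and 2 and to 20.9 and 34.2 CPM in Kap1 KD replicates 1 and 2, most of it Cd14, and their part in these differences was not tested.

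**Figure D3:**
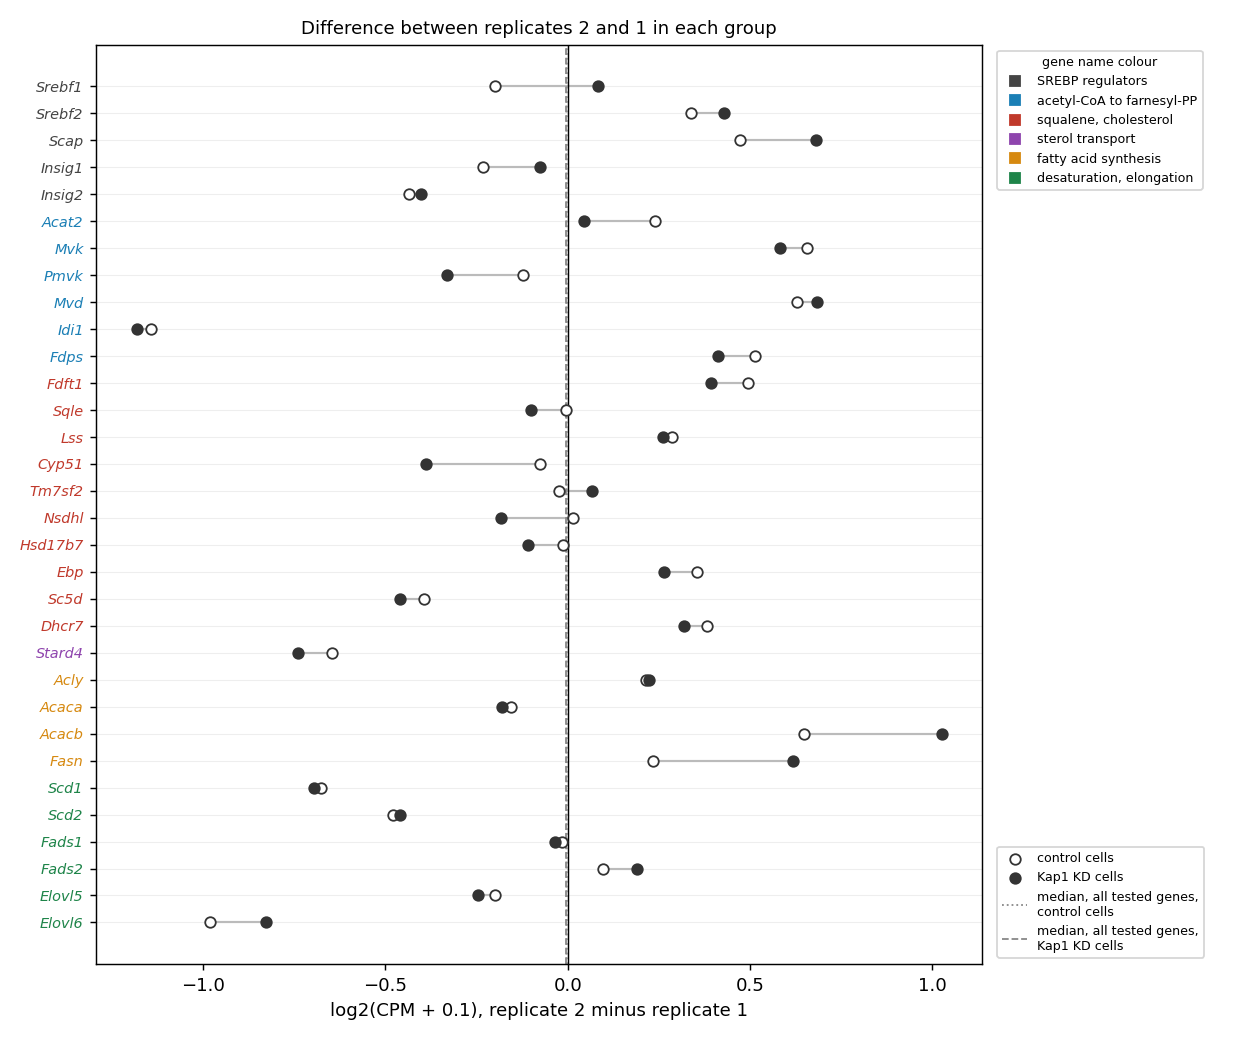
Replicate 2 minus replicate 1 on the log2(CPM + 0.1) scale for each of the 32 genes, with an open circle for control cells, a filled circle for Kap1 KD cells and a grey line joining them. Dotted and dashed lines, both close to 0, are the medians of all tested genes. Idi1 lies farthest to the left, at -1.14 and -1.18, and Acacb has the highest value, 1.03, in Kap1 KD cells.

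Idi1 differed most, at -1.14 among the control samples and -1.18 among the Kap1 KD samples on the log2 scale, with a fitted difference of -1.17 ± 0.078 (SE), whose adjusted p from edgeR was 2.27e-48. Other genes of the same pathway went either way: Mvd differed by 0.66 ± 0.083 (SE), Mvk by 0.62 ± 0.08 (SE) and Fdps by 0.46, whereas Pmvk, whose step lies between those of Mvk and Mvd, differed by -0.22 ± 0.081 (SE). In DESeq2 with both group and replicate number, Mvd, Mvk and Fdps passed and Pmvk did not (adjusted p = 0.155). Enzymes of consecutive steps from mevalonate to farnesyl diphosphate were not higher or lower together. Medians by role were 0.30 for the genes up to farnesyl diphosphate, -0.017 for those that make squalene and turn it into cholesterol, 0.32 for Acly, Acaca, Acacb and Fasn and -0.35 for desaturation and elongation. Elovl6 and Scd1 stood lowest of the last group, at -0.91 ± 0.079 (SE) and -0.69 ± 0.055 (SE), and Scd2 was lower by 0.47, while Fads1 differed by -0.025 and did not pass. Stard4 differed by -0.69 ± 0.081 (SE). Scap was higher in replicate 2, at 0.58, Srebf2 also, at 0.38, and Insig2 was lower, at -0.42. Acacb was higher in replicate 2 by 0.89 ± 0.21 (SE), with an edgeR adjusted p of 7.17e-05. The genes with the largest decrease in Kap1 KD differed by less than 1.5-fold between replicates, with Cyp51 at -0.23, Pmvk at -0.22 and Tm7sf2 at 0.019, or -0.07 with total-count scaling.

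The direction of the replicate difference went with base composition. Transcripts of the 15 lipid genes that were higher in replicate 2 had a median GC content of 55.8% (49.6% to 59.4%), and those of the 17 lower ones 46.2% (41.5% to 58.4%), where the median of all tested genes was 50.3%. Idi1 had the lowest GC content of the 32, at 41.5%, and Mvk and Mvd the highest, at 59.4% and 59.3%. Spearman's rho between GC content and the difference was 0.782 over the 32 genes and 0.678 over 12417 tested genes, across genes that share the same libraries. In the same 4 bins of GC content, the lipid genes had median differences of -0.56, -0.16, 0.29 and 0.40 and all tested genes -0.60, -0.12, 0.20 and 0.39. The part of GC content in the replicate difference was not tested further.

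**Figure D4:**
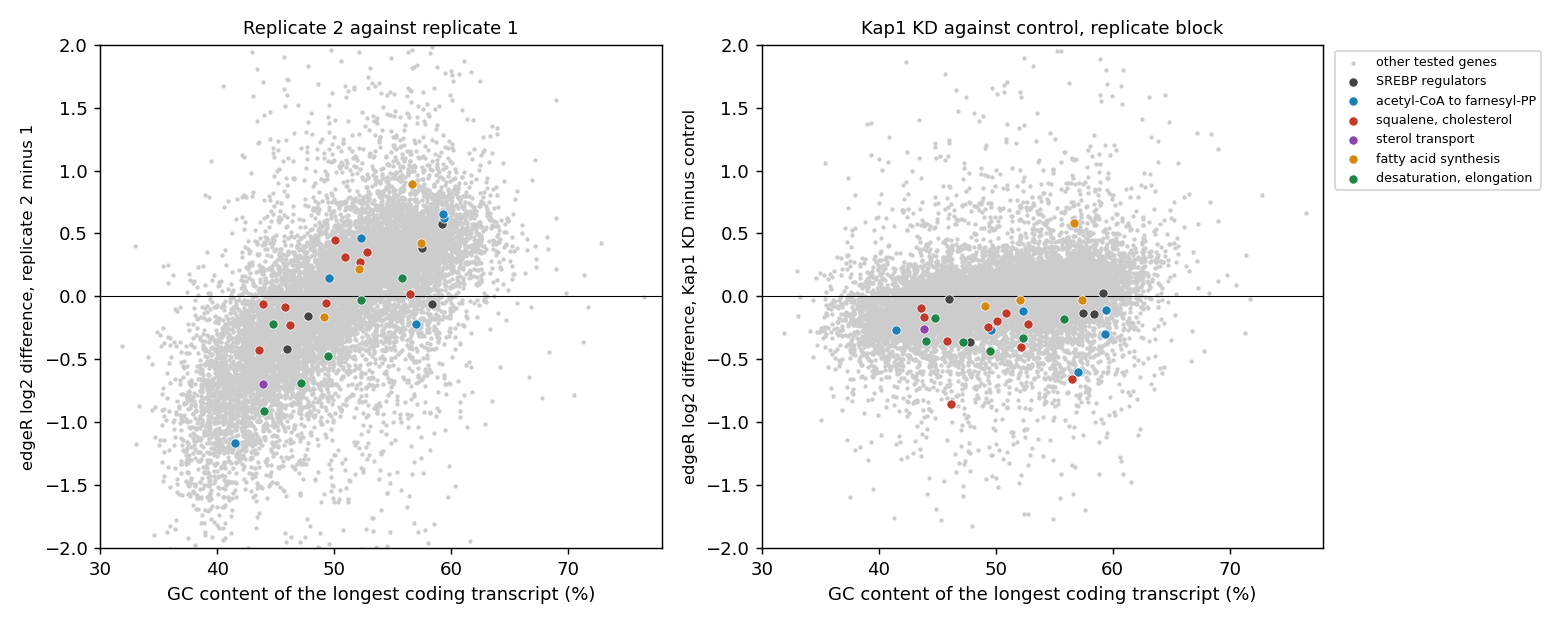
GC content of the longest coding transcript (x axis, percent) against edgeR's log2 difference of replicate 2 minus 1 (left) and of Kap1 KD minus control with the replicate block (right), with lipid genes in colour by role and other tested genes in grey. The left cloud rises with GC content and the lipid genes lie along it, while on the right most lipid genes lie below 0. The vertical range of -2 to 2 leaves out 117 genes on the left and 17 on the right.

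Genes next to these pathways were followed with lists set for this purpose. The protein machinery that cleaves, holds or degrades SREBP, SCAP and INSIG was tested for 7 genes. Of these 1 fell in the blocked fit without a fold limit, against 11.5% of all tested genes (Erlin1, which helps to retain SREBP and SCAP in the membrane, at -0.30 ± 0.075 (SE), adjusted p = 0.00087 from edgeR and 0.0772 from DESeq2), and none rose, against 10.1%. The proteases Mbtps1 and Mbtps2 gave -0.088 and -0.056. Of 13 genes of sterol efflux, uptake and esterification, 10 were tested, 1 rose, against 10.1% of all tested genes, and 3 fell, against 11.5%. Scarb1, the HDL receptor, had 100.2 CPM in control and 129 CPM in Kap1 KD replicate 1, and 137 and 204 CPM in control and Kap1 KD replicate 2. It was higher in both pairs and its blocked log2 change was 0.47 ± 0.069 (SE), with an adjusted p of 6.24e-10 from edgeR.

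The 3 that fell were the cholesterol exporters Abca1 and Abcg1, at -0.44 ± 0.074 (SE) and -0.55 ± 0.16 (SE), and Nr1h3, a liver X receptor that switches them on, at -0.59 ± 0.16 (SE). In DESeq2 with the block Abca1 passed, but neither Abcg1 nor Nr1h3 did (adjusted p = 0.234 and 0.229). Nr1h2, the other liver X receptor, was higher in both pairs, and its blocked log2 change of 0.12 ± 0.080 (SE) did not pass (adjusted p = 0.296 from edgeR). It stood at 22.7 RPKM in control cells, against 2.09 RPKM for Nr1h3. Abca1 had 69.4 CPM in control and 51.6 CPM in Kap1 KD replicate 1, and 29.4 and 21.3 CPM in control and Kap1 KD replicate 2, so that its replicates lay further apart than its groups. Of 16 genes that supply acetyl-CoA and NADPH or build glycerolipids, 14 were tested, 3 fell, against 11.5% of all tested genes, and none rose, against 10.1%. Acss2, which makes acetyl-CoA from acetate, had 9.28 and 9.96 CPM in the control samples and 6.01 and 5.54 CPM in the Kap1 KD samples. Both Kap1 KD samples were below both controls, with a blocked log2 change of -0.74 ± 0.13 (SE) and an adjusted p of 3.75e-07 from edgeR. Gpam, the first acyltransferase of glycerolipid synthesis, fell by 0.60 (SE 0.08) and Mid1ip1, which activates acetyl-CoA carboxylase, by 0.36 (SE 0.074), both on the log2 scale. The NADPH enzymes Me1, G6pdx and Pgd gave -0.13, -0.11 and 0.059 and did not pass.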

How the data were processed

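The mRNA libraries of Hepa 1-6 cells (2 control, 2 Kap1 KD) were used, and the 4 small RNA samples of the series were not. The authors aligned the reads to mm9 with TopHat2 2.0.11, reporting 1 alignment per read, and deposited whole-number counts per Ensembl gene from HTSeq 0.6.1, without normalization. The labels name a stranded kit. The strand setting of the counting is not given in the sources used here, and the methods name an Ensembl BioMart release for gene coordinates without saying whether the counting used it. All columns of the count table were mapped to samples.

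Counts were filtered with filterByExpr, scaled by TMM and tested with edgeR 4.0.16 (quasi-likelihood F test, R 4.3.3), with group alone, with group and replicate number (the block), and for replicate 2 against 1 with group as covariate. A call meant at least 1.5-fold and p under 0.05 after Benjamini-Hochberg adjustment over all 14142 tested genes. The SE of a log2 change is its size over the square root of F. DESeq2 1.42.0, other scalings and filters, other thresholds and the leaving out of each sample were alternatives. The alternatives of the blocked fit were chosen after seeing the data. Exact permutation of 4 samples (two-sided) reaches no p under 0.333 and was not used for single genes. Changes per pair are on the log2(CPM + 0.1) scale, which understates those of low genes. RPKM used the union of exons in an mm9 annotation, which matched 21806 of 21915 identifiers, and GC content its longest coding transcript. Of the 32 genes, 11 have another annotated gene over them, so shared or, without strand, antisense reads may affect their counts. The fits were also run on simulated counts. There, genes of like abundance had the same dispersion, so that assumption of the blocked fit was not tested.

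Per-sample values are given for up to 4 genes of each role with the largest log2 change in either comparison and for the genes with the highest and the lowest level. Promoters holding the sterol regulatory element-like letters were to be printed, but no analysed gene held them. The members and lists were chosen with earlier results of these data known.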

Additional observations from a re-analysis of the deposited data

How the results depend on the processing

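Kap1 KD against control moved with the replicate term. Members called higher and lower numbered 0 and 0 without the block, 1 and 3 in edgeR with it and 0 and 3 in DESeq2 with it, which gave Acacb no adjusted p. Over all tested genes, 0 higher and 0 lower became 292 and 339 in edgeR with the block, 106 and 121 in DESeq2 with the block, and 2 and 1 in DESeq2 without it. Leaving out 1 sample gave 2 to 45 genes higher and 1 to 20 lower. In the blocked fit, members called higher were 0 with total-count scaling, where Acacb missed both limits, and members called lower were 17 without a fold limit. Fasn turned negative with the block (-0.03 in edgeR, -0.02 in DESeq2) and with total counts (-0.05), and Scap with total counts (-0.01, or -0.02 with the block). Without the block, leaving out 1 sample unbalances the replicate numbers, and log2 changes then crossed 0, from -0.13 to 0.11 for Acly, -0.36 to 0.17 for Fdps, -0.67 to 0.08 for Mvd, -0.43 to 0.27 for Mvk, -0.35 to 0.07 for Srebf2, -0.16 to 0.02 for Acaca, -0.02 to 1.05 for Acacb, -0.33 to 0.28 for Fasn, -0.97 to 0.42 for Idi1, -0.24 to 0.21 for Insig2, -0.33 to 0.14 for Sc5d, -0.33 to 0.35 for Scap, -0.67 to 0.11 for Stard4, -0.85 to 0.20 for Elovl6, -0.75 to 0.01 for Scd1, -0.40 to 0.00 for Dhcr7, -0.31 to 0.07 for Ebp and -0.43 to 0.08 for Fdft1.

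For replicate 2 against 1, members called higher numbered 3 and were 0 at 2-fold, 12 without a fold limit, 1 with total counts and 1 to 3 on leaving out 1 sample. Members called lower numbered 4 and were 1, 11 and, on leaving out 1 sample, 2 to 7. Over all tested genes the 1284 higher became 364, 4450, 847 and 355 to 1670, and the 2464 lower became 1004 at 2-fold, 4540 without a fold limit and 977 to 2440. Each of the 4 samples moved one of these counts by over 1.5 times. Tm7sf2 turned to -0.07 with total counts. Log2 differences that crossed 0 on leaving out 1 sample ran from -0.32 to 0.40 for Tm7sf2, -0.77 to 0.25 for Cyp51, -0.19 to 0.15 for Fads1, -0.16 to 0.06 for Hsd17b7, -0.31 to 0.15 for Nsdhl, -0.59 to 0.12 for Pmvk, -0.19 to 0.10 for Sqle, -0.37 to 0.07 for Insig1, -0.20 to 0.08 for Srebf1 and -0.04 to 0.34 for Acat2. With total counts the members' medians were -0.32 for Kap1 KD within pair 2, and -0.07 (control) and -0.11 (Kap1 KD) between replicates. Total counts moved the median of all tested genes by less than 0.1. The longest transcript in place of the exon union gave a median of 27.0 RPKM. The plus strand alone gave CCAAT in 42.3% of the 26 listed genes with a promoter, against 23.7% of all 27025 genes with one (80.8% against 41.1% on both strands). The causes were not tested. RLE scaling and the low-count filters left these counts within 1.5 times. No pairing is stated by the labels, so a call lost or gained with the block is no measure of the size of an effect.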

Other observations

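Fatty acid oxidation, which breaks down what the described genes build, was followed with a list of 11 genes, of which 10 were tested. Without a fold limit, none rose with Kap1 KD in edgeR's blocked fit, against 10.1% of all tested genes, and 3 fell, against 11.5%. Cpt1a, the carnitine palmitoyltransferase that admits fatty acids to mitochondria, had 53.3 and 69.8 CPM in the control samples and 35.2 and 42.3 CPM in the Kap1 KD samples. Both Kap1 KD samples lay below both controls, and the blocked log2 change was -0.66 ± 0.077 (SE), where edgeR gave an adjusted p of 2.19e-15 and DESeq2 with the block 1.47e-07. Ehhadh, an enzyme of peroxisomal oxidation, had between 1.22 and 2.66 CPM and a blocked log2 change of -0.70 ± 0.22 (SE), with an edgeR adjusted p of 0.00852, while DESeq2 with the block gave it no adjusted p. Acadm, the medium-chain dehydrogenase, fell by 0.20 on the log2 scale (adjusted p = 0.0426 from edgeR and 0.325 from DESeq2 with the block). The subunits of the trifunctional protein, Hadha and Hadhb, gave 0.066 and 0.18 and did not pass. Ppara, the receptor that switches oxidation genes on in liver, had at most 0.625 CPM.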
